A study of Rattus norvegicus with 9 samples.

Results

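The genes described here are the ubiquitin conjugating enzymes (symbols beginning Ube2) and the ubiquitin specific proteases (symbols beginning Usp and a number) of the rat adrenal medulla. They were chosen by symbol alone, from probe sets annotated to a single gene, and each gene was represented by its brightest probe set on average. This gave 72 members of 14217 named genes, 29 Ube2 and 43 Usp genes with 135 probe sets between them. A filter on dim probe sets left 66 of the 72 members (26 Ube2 and 40 Usp) among the 11287 genes tested.

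Tissue of adult rats of 280 to 320 g was measured on 9 oligonucleotide arrays in 3 groups of 3. Control rats were not stressed. 1XIMO rats were held immobile in 1 session of 2 h, and 6XIMO rats in daily sessions of 2 h on 6 days. Both adrenal medullas were dissected after the last session, and strain, sex and pooling are not stated in the labels used here. The labels do not say that the arrays come from different animals, and the p-values then cover only the spread between these arrays, which may be technical. The labels name the rat as organism, but their tissue texts also mention mouse and brain, which were not followed.

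Ubiquitin is a small protein that is joined to other proteins in a relay. An activating enzyme charges it, a conjugating enzyme (E2) carries it on a cysteine, and a ligase directs it to the substrate. Chains of one linkage send proteins to the proteasome, chains of another assemble signalling and repair complexes, and related proteins such as SUMO, NEDD8 and ISG15 use E2 enzymes of their own. Ubiquitin specific proteases (USP) take ubiquitin off again. In secretory cells the pathway also clears misfolded proteins from the endoplasmic reticulum and tunes receptors and transcription factors.

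The mean log2 level of 7 chromaffin cell markers was 15.17 to 15.77 in Control, 15.2 to 16.01 in 1XIMO and 16.44 to 16.82 in 6XIMO. Adrenal cortex markers (6 of 8 tested) were as bright, at 15.18 to 15.82, 15.14 to 16.44 and 16.65 to 17.28, so RNA of the cortex was measured in each group too. The markers did not move together on 6XIMO array 1, where Slc18a1, a vesicular amine transporter, was at 1390.0 against 11584 to 26886 on the other 8 arrays, Ddc, of catecholamine synthesis, at 11230.0 against 25268 to 47888, and Chgb, a granule protein, at 989259 against 49013 to 287083. In such bulk tissue, fewer cells of a type and less RNA per cell cannot be told apart. The 6XIMO arrays also differed in quality measures. The actin 3′/5′ ratio, which rises when labelled RNA is incomplete, was 231, 6.11 and 8.87 on them and 1.45 to 2.15 on the other 6. Array 1 of 6XIMO stood apart, correlating at 0.604 to 0.73 with the other 8, which correlated at 0.854 to 0.983 among themselves. It held the lowest of the 9 values for 29 of 66 members (43.9%) and for 33.3% of all genes tested. Each result below rests in part on this array, because the spread was estimated over the 3 groups jointly. Counts over all members are given with and without it. The counts of shorter role lists and all values of related genes rest on all 9 arrays.

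In log2 units (intensity plus 16), the Ube2 genes tested had mean levels of 9.74 to 14.17 with a median of 12.98, and the Usp genes 8.84 to 13.58 with a median of 12.00. Probe sets differ in brightness for the same amount of RNA, so signal is no measure of which gene has more RNA. By signal alone the brightest probe sets were those of Ube2s, Ube2k and Ube2b, and the dimmest tested were those of Usp29, Ube2c, an E2 of mitosis, and Usp49. The 6 members left out as dim were Ube2d2b, Ube2t, Ube2u, Usp31, Usp43 and Usp44, with mean log2 levels of 6.05 to 8.44, under the limit of 8.51 that the filter set. Among the members passing it, the nearest were Usp49 at 8.84 and Ube2c at 9.74.

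After 1 session a few USP genes moved and most of the family did not pass the test. Usp38, Usp24, Usp13 and Usp37 and the conjugating enzymes Ube2n and Ube2j1 rose, while Usp30, Usp21 and Usp48 fell. A gene passed at an adjusted p under 0.05 in limma (Benjamini-Hochberg over all 11287 genes). By this rule 6 of 66 members rose (9.09%) and 3 fell (4.55%), against 4.2% and 5.31% of all genes tested. The median log2 fold change was -0.03 over the members and -0.13 over all genes. Of 26 Ube2 genes 2 rose and 0 fell (2 were lower at an unadjusted limma p under 0.05), with 9 of them below 0, and of 40 Usp genes 4 rose and 3 fell, with 26 below 0. At 6 arrays in the 2 groups these shares rest on few genes. Without 6XIMO array 1, 17 of 67 members rose and 9 fell after 1 session, when 9.84% and 20.3% of all genes did, and all 9 first named were among them. With each array centred on its median 1 rose and 0 fell, as did 1.4% and 0.594% of all genes. Leaving out Control replicate 3 gave 1 rise and 0 falls, Control replicate 2 gave 2 and 0, 1XIMO replicate 2 gave 4 and 0, and 1XIMO replicate 3 gave 1 and 0. Calls over all genes, in either direction, dropped in these fits as well. They were 1073 as reported and 362, 422, 474 and 406 in the same order.

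After 6 sessions more members differed from Control, in both directions. Usp2, Usp13, Usp10, Usp7, Ube2n, Ube2g2, Ube2j1, Ube2v2 and Usp39 rose, and Usp48, Usp40, Ube2d1, Usp54, Usp5, Usp28, Usp21, Ube2g1, Usp6nl and Usp19 fell. These are 9 rises (13.6% of 66) and 10 falls (15.2%) by limma, where 9.36% and 14.9% of all genes tested rose and fell. The share of falls was near that of all genes. The medians were -0.19 for the members and -0.23 for all genes. The split depended on the scaling, with 11 rises and 5 falls after quantile normalization and 4 rises and 0 falls with each array centred on its median. The shares of all genes moved too, to 9.2% rising and 8.35% falling after quantile normalization and to 4.09% and 2.01% after centring. The median of all genes was then -0.15 and -0.06. Without 6XIMO array 1, 20 members rose and 16 fell, against 17.6% and 30.7% of all genes, and 19 of 19 earlier calls remained. Leaving out Control replicate 3 left 5 rises and 6 falls, and leaving out Control replicate 2 left 6 and 6. Shares of all genes are not given for these fits, so the lower counts are not a result about the members.

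**Figure D1:**
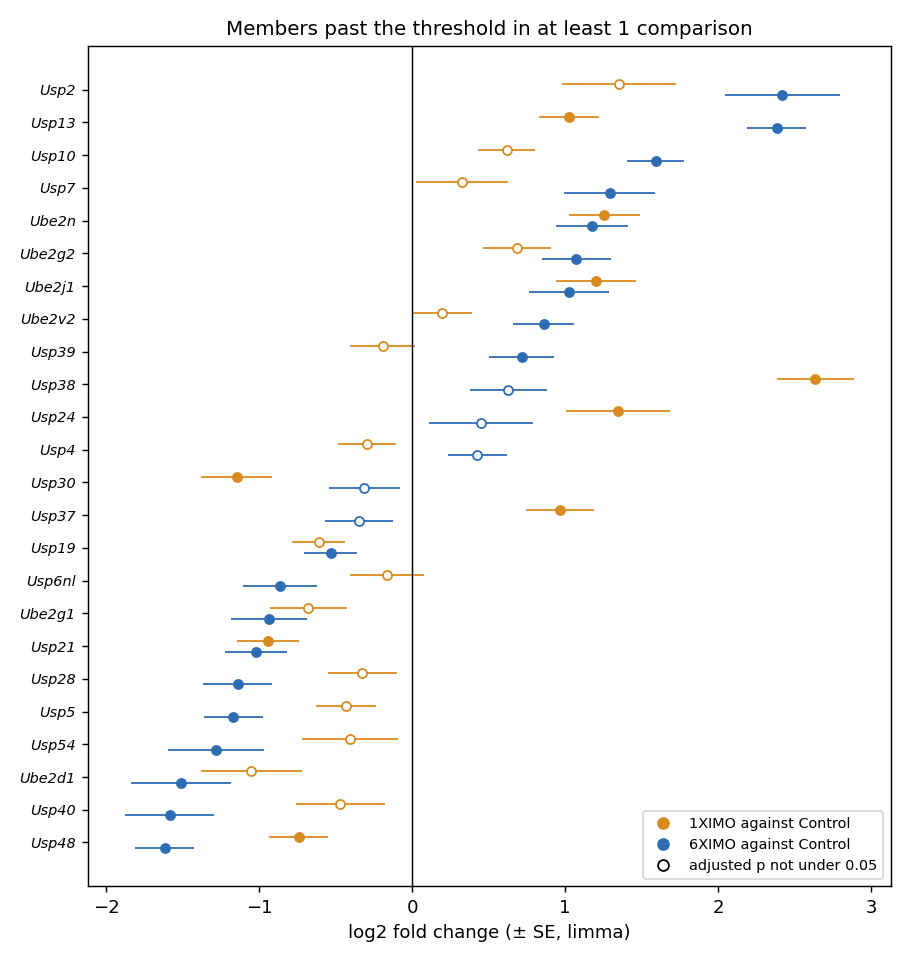
Log2 fold change (x axis, ± SE of the limma fit, 3 arrays per group) of the 24 members that passed the threshold in at least 1 of 3 comparisons, after 1 session (orange) and after 6 sessions (blue). Open points did not reach an adjusted p under 0.05. Usp38 lies farthest to the right after 1 session at 2.63, and Usp2 and Usp13 after 6 sessions at 2.42 and 2.38.

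In all, 24 members passed in at least 1 comparison and 42 in none. Ube2j1, Ube2n and Usp13 rose against Control in both stressed groups, and Usp21 and Usp48 fell in both. The 2 comparisons share their Control arrays, so the values stand side by side and their likeness is not a result. The direct comparison of 6XIMO with 1XIMO tests whether the groups differ. In it 4 members rose (6.06%, against 5.21% of all genes tested) and 5 fell (7.58%, against 4.63%), all of them Usp genes, by limma. Usp13, Usp10, Usp39 and Usp4 were higher after 6 sessions than after 1, and Usp38, Usp37, Usp40, Usp48 and Usp5 were lower. None of 26 Ube2 genes passed in limma, and at an unadjusted p under 0.05 there were 3 higher and 2 lower. With 6XIMO array 1 left out, Ube2e2, Ube2k, Ube2s and Ube2v2 were higher and Ube2z lower, and after quantile normalization of all arrays Ube2v2 was higher (0.73, adjusted p = 0.0425). The counts were 14 and 13 without 6XIMO array 1 (15.1% and 17.3% of all genes), 5 and 2 after quantile normalization (3.46% and 2.11%), and 0 and 0 with centring on the median (0.354% and 0.177%). The counts were also 0 and 0 without 1XIMO replicate 3, 0 and 1 without 1XIMO replicate 2, 1 and 2 without 1XIMO replicate 1, 2 and 4 without 6XIMO replicate 3, 4 and 3 without 6XIMO replicate 2, 3 and 3 without Control replicate 1, 2 and 3 without Control replicate 2, and 2 and 2 without Control replicate 3. For these last fits the shares of all genes are not given, so their counts are not a result about the members.

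Usp38, a deubiquitinating enzyme known from the control of interferon signalling and histone marks, had the largest response of the members to a first session. Its intensity was 2617, 3003 and 3099.8 on the Control arrays, 14884, 18806 and 21102 on the 1XIMO arrays, and 3104, 5819 and 5013 on the 6XIMO arrays. Every 1XIMO value was above every other value. It rose 6.21-fold after 1 session (log2 fold change 2.63 ± 0.25 SE, limma adjusted p = 0.00028) and kept its call under all 18 alternatives, at 2.52 to 2.80. After 6 sessions the log2 fold change against Control was 0.63 ± 0.25 (adjusted p = 0.0979), or 0.89 without 6XIMO array 1 (adjusted p = 0.00183), and the level was 4.01-fold lower than after 1 session (-2.01 ± 0.25, adjusted p = 0.00878). Without 1XIMO replicate 3 that difference was -1.89 (adjusted p = 0.0509, with 0.000432 to 0.133 over its alternatives). A dimmer probe set of Usp38 also rose after 1 session, by 2.87, the difference of log2 group means. After 6 sessions it was still 1.63 above Control, and 1.24 lower than after 1. It measured 1634, 1490 and 1276 in Control and 6179, 3631 and 4206 in 6XIMO, without overlap.

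The bases before the annotated start are shown for Usp38, Usp13 and Usp2, which had the largest rises, and for Ube2j1, which rose in both stressed groups; these 4 were chosen after their values were seen. Each is 250 bases upstream of the start, 5′ to 3′ on the strand of the gene, from the RefSeq promoter table for GRCr8, which held 59 of the 72 members. Capitals mark TGACGT, the core of the cAMP response element, and TGACTCA, the AP-1 element, on either strand. Both motifs were picked after the values were seen. The intervals are chr19:43910224-43910473 (+) for Usp38, chr5:52218557-52218806 (+) for Ube2j1, chr2:117505193-117505442 (+) for Usp13 and chr8:53310620-53310869 (+) for Usp2.
Usp38: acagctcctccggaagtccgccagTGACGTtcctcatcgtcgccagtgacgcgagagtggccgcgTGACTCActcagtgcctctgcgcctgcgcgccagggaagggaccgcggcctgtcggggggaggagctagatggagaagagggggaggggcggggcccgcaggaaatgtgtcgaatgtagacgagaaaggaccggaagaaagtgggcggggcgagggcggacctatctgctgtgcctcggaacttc
Ube2j1: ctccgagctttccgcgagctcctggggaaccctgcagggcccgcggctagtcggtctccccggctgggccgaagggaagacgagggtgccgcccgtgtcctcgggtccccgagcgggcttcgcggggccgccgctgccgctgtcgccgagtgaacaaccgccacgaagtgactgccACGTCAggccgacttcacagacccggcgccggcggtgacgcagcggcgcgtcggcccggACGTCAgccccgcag
Usp13: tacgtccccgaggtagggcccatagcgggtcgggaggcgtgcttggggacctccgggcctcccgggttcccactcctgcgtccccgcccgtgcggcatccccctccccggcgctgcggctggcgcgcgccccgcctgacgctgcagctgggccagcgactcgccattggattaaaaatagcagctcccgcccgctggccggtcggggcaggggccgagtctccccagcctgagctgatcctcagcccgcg
Usp2: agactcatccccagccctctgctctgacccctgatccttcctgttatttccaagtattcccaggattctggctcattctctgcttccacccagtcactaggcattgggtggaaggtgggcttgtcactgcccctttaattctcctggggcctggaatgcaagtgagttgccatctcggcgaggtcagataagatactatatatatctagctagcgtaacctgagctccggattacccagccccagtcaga
The Usp38 window held TGACGT beginning 226 bases before the start and TGACTCA beginning 185 bases before it. The Ube2j1 window held TGACGT on the opposite strand at 74 and 15 bases. These letters did not occur in the Usp13 and Usp2 windows. Of 33469 windows of this length in the table, 6.95% held TGACGT and 4.05% TGACTCA. Among the members, TGACGT was in 7 of the 59 (Ube2b, Ube2d2, Ube2g2, Ube2j1, Ube2s, Usp38 and Usp8) and TGACTCA in 1, Usp38. A member was counted if any of its windows held the motif, so this count and the share of windows are unlike measures. Ube2n, which rose in both stressed groups like Ube2j1, is not among the members with either motif, and its bases are not shown. A match is a description of the sequence, and binding was not measured.

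**Figure D2:**
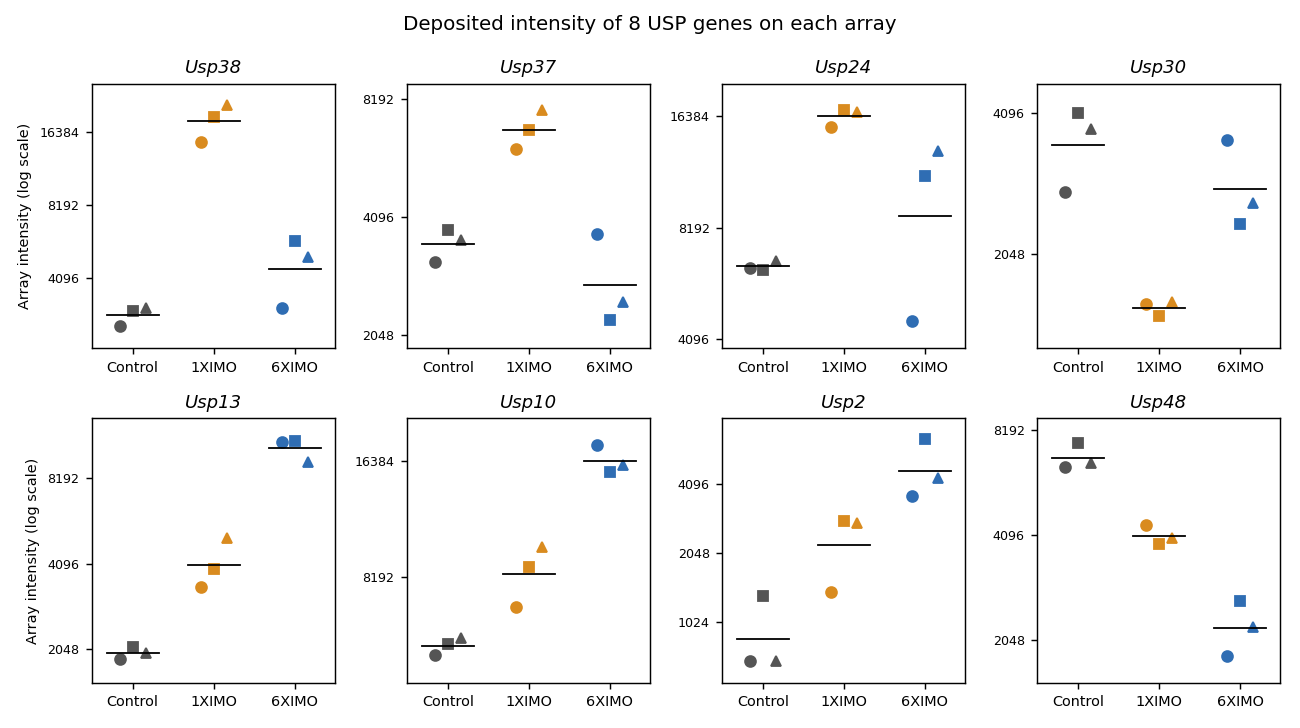
Deposited intensity (y axis, log scale) of 8 Usp genes on each of 9 arrays, with replicate 1 as circles, 2 as squares and 3 as triangles, and lines at the group means of the log2 values. Usp38 is highest in 1XIMO, at 14884 to 21102, while Usp13 climbs from 1896 to 2095 in Control to 9351 to 11058 in 6XIMO.

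Usp37 and Usp24 also rose after 1 session and did not pass against Control after 6 with all arrays. Usp37, an enzyme of the DNA replication phase, measured 3142, 3793 and 3563 in Control, 6110.1, 6826 and 7651 in 1XIMO, and 3709, 2237 and 2477 in 6XIMO. It rose by 0.97 ± 0.22 on the log2 scale after 1 session (limma adjusted p = 0.0248) and was -1.31 ± 0.22 in 6XIMO against 1XIMO (adjusted p = 0.0122), with no overlap of the 1XIMO arrays with either group. Leaving out any one Control or 1XIMO array put its first adjusted p at 0.0541 to 0.117 (0.000244 to 0.178 over its alternatives). The second was 0.0603 and 0.0627 without 1XIMO replicates 2 and 3 (0.000434 to 0.113). Usp24, a very large USP, measured 6394, 6312 and 6662 in Control, 15364, 17081 and 16842 in 1XIMO, and 4602, 11306 and 13165 in 6XIMO. It rose by 1.34 ± 0.34 after 1 session (adjusted p = 0.0356), and 6XIMO array 1 lay below Control while arrays 2 and 3 lay above it. Without any one Control or 1XIMO array its adjusted p was 0.0907 to 0.124 (1.47e-05 to 0.427). Without 6XIMO array 1, Usp24 was 0.92 above Control after 6 sessions (adjusted p = 0.000305) and Usp37 was at -0.56 (adjusted p = 0.0125). A second probe set of Usp24 gave a difference of 1.92 after 1 session and 0.88 after 6.

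Usp30, the deubiquitinating enzyme of the outer mitochondrial membrane that counters removal of mitochondria, had the largest fall after 1 session. Its intensity was 2781, 4091 and 3789 in Control, 1599.8, 1508 and 1617 in 1XIMO, and 3596, 2369.7 and 2629 in 6XIMO. The 1XIMO values lay close together below every Control and 6XIMO value. It fell by 1.15 ± 0.23 on the log2 scale (limma adjusted p = 0.0141), with adjusted p of 0.0601 to 0.0768 without Control replicate 2 or 3 or 1XIMO replicate 2 or 3 (0.000794 to 0.192 over its alternatives). Against 1XIMO, the 6XIMO level differed by 0.83 ± 0.23 on the log2 scale (adjusted p = 0.0503), with 0.0252 without 6XIMO array 1 and 0.0481 after quantile normalization.

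Of the 3 conjugating enzymes of the endoplasmic reticulum, which tag misfolded proteins for export and destruction, 1 rose after 1 session and 2 after 6, where 4.2% and 9.36% of all genes rose, and a count over so few genes describes these genes only. Ube2j1, anchored in the membrane, measured 3675, 2311 and 2574 in Control, 6392, 5390.4 and 7755 in 1XIMO, and 4298, 6067 and 7115 in 6XIMO. Both stressed groups lay above Control. It rose by 1.20 ± 0.26 after 1 session (limma adjusted p = 0.0193) and by 1.02 ± 0.26 after 6 (adjusted p = 0.0193). The first call was lost without Control replicate 2 or 3 or 1XIMO replicate 1 or 3 (adjusted p of 0.0626 to 0.0944, in a range of 0.00128 to 0.317), and the second without Control replicate 2 or 3 or 6XIMO replicate 3 (0.0603 to 0.0819, in a range of 0.00133 to 0.215). Ube2g2, which works with ligases at this membrane, rose by 1.07 ± 0.22 after 6 sessions (adjusted p = 0.00835), from 3624, 3535 and 2208 in Control to 6685, 6369 and 6239. Its dimmer probe set went the other way, by -1.40, and the mean of its probe sets gave -0.17. Ube2j2 did not pass, at 0.22 ± 0.20 and 0.34 ± 0.20 (adjusted p = 0.653 and 0.24), but did after 6 sessions without 6XIMO array 1 (0.52, adjusted p = 0.00752).

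Ube2n and Ube2v2 act in making Lys63-linked chains, which serve signalling and DNA repair rather than the proteasome. Both rose after 6 sessions, where 9.36% of all genes rose, and a count over 2 genes describes these genes only. Ube2n, the catalytic E2 of the pair, measured 9727, 7537 and 6913 in Control, 16714, 18083 and 22851 in 1XIMO, and 14329, 21952 and 18606 in 6XIMO. It rose by 1.25 ± 0.23 after 1 session (limma adjusted p = 0.0102) and by 1.17 ± 0.23 after 6 (adjusted p = 0.00687), and no stressed array overlapped Control. The first had an adjusted p of 0.0527 to 0.0627 without Control replicate 2 or 3 or 1XIMO replicate 3 (0.000378 to 0.309 over its alternatives). A dimmer probe set of Ube2n differed by 0.80 after 1 session and by -0.04 after 6, and with the mean of both the value after 6 sessions was 0.57 (adjusted p = 0.0925, with 0.000325 to 0.177 over its alternatives). Ube2v2, its inactive partner, measured 5003, 4088 and 4228 in Control, 4882, 5216 and 5087 in 1XIMO and 6301, 9368 and 8780.4 in 6XIMO. It rose by 0.86 ± 0.20 after 6 sessions (adjusted p = 0.0127), with 0.057 and 0.0555 without Control replicates 2 and 3 (0.00025 to 0.266).

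A mixed list of E2 genes held Ube2d1, Ube2d2, Ube2e2, Ube2e3, Ube2h, Ube2l3, Ube2q1, Ube2q2 and Ube2ql1. Of these 9, 0 rose and 1, Ube2d1, fell after 6 sessions with all arrays. None passed after 1. Of all genes, 9.36% rose and 14.9% fell after 6 sessions. Without 6XIMO array 1, Ube2e2 rose after 6 sessions (0.66, limma adjusted p = 0.0133). Ube2d1 measured 2574, 3564 and 2687 in Control, 931, 1789 and 1634 in 1XIMO, and 1153, 1259.9 and 708 in 6XIMO, with all stressed values below Control. Its log2 fold change was -1.05 ± 0.33 after 1 session (limma adjusted p = 0.0788, or 0.0206 without 6XIMO array 1), and it fell by 1.51 ± 0.33 after 6 (adjusted p = 0.00997). A second probe set differed by -0.99 and -2.74. For the brightest probe sets of Ube2d2 and Ube2e3, 6XIMO array 1 alone was low. Another Ube2d2 probe set measured 213, 3622 and 5649 in 6XIMO against 5745 to 6542 in Control. A further one measured 2441, 6327 and 8541 against 7765 to 9418. Ube2h was lowest on 6XIMO array 1 and below every Control value on the other 6XIMO arrays too. It measured 11565, 13669.8 and 15977 in Control and 1902, 10600.4 and 11290.3 in 6XIMO (-1.15 ± 0.57 on the log2 scale, adjusted p = 0.168). Its other probe sets differed by -1.60 and -1.74. Ube2ql1, an E2 relative found mainly in nervous tissue, measured 677 to 925 in Control and 1696 to 2152 in 1XIMO, without overlap (1.15 ± 0.42, adjusted p = 0.128). Without 6XIMO array 1 its adjusted p after 1 session was 0.00908.

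Ube2g1, which builds chains for the proteasome, fell by 0.94 ± 0.25 after 6 sessions (limma adjusted p = 0.0241), from 18514, 18534 and 19555 in Control to 6501, 11922 and 12348, with 12682, 10868 and 11867 in 1XIMO. All 6 stressed values lay below Control, and a second probe set differed by -0.84 after 1 session and by -1.55 after 6. The adjusted p was 0.066, 0.0729 and 0.0832 without Control replicates 1, 2 and 3 (0.000273 to 0.489). Ube2k, a second such enzyme, measured 12252 to 15136 in Control and 14511, 26272 and 29778 in 6XIMO (0.71 ± 0.27, adjusted p = 0.08), and 1.03 without 6XIMO array 1 (adjusted p = 0.000278). Its 3 other probe sets past the filter went the other way after 6 sessions, by -1.57, -0.49 and -0.57. Ube2s, which extends chains with the anaphase-promoting complex, measured 10956 to 14192 in Control and 14347, 31640.3 and 32528 in 6XIMO (0.92 ± 0.31, adjusted p = 0.0545). Its value was 1.31 without that array (adjusted p = 9.61e-05) and 0.67 after quantile normalization (adjusted p = 0.0371). The second probe set of Ube2s differed by -0.78 after 6 sessions, with 714, 255 and 334 in 6XIMO against 607 to 793 in Control.

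None of the E2 enzymes for histones and DNA repair (Ube2a and Ube2b), for ubiquitin-like proteins (Ube2f and Ube2m for NEDD8, Ube2l6 for ISG15) or of large size (Ube2o and Ube2z) passed in any comparison with all arrays. Without 6XIMO array 1, Ube2z passed after 1 session (adjusted p = 0.00716) and Ube2f, Ube2m and Ube2l6 after 6 (0.49, 0.42 and -0.59, adjusted p = 0.0154, 0.0183 and 0.0248). Ube2a also passed after 1 session (0.55, adjusted p = 0.0428), by another probe set that was then its brightest. With all arrays the log2 fold changes of these E2 genes were -0.43 to 0.59 after 1 session and -0.22 to 0.27 after 6. Ube2z measured 9497 to 11245 in Control and 14271 to 18113 in 1XIMO, which did not overlap (0.59 ± 0.20, limma adjusted p = 0.108).

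The related proteases Usp13 and Usp5 went in opposite directions after 6 sessions. Usp13 measured 1896, 2095 and 1986 in Control, 3402, 3915 and 5050.01 in 1XIMO, and 10986, 11058 and 9351 in 6XIMO, so that the 3 groups did not overlap. It rose by 1.02 ± 0.19 on the log2 scale after 1 session (limma adjusted p = 0.0113) and 5.21-fold after 6 (2.38 ± 0.19, adjusted p = 0.000119), and was 1.36 ± 0.19 higher after 6 than after 1 (adjusted p = 0.00967). The call after 6 sessions held under all 18 alternatives, at 1.74 to 2.55. That after 1 session had an adjusted p of 0.0557 and 0.0596 without Control replicate 3 and 1XIMO replicate 3 (0.00034 to 0.273), and the difference of the groups 0.0548 and 0.0509 without 1XIMO replicates 2 and 3 (0.00106 to 0.15). A dimmer probe set of Usp13 was 0.77 and 1.11 above Control, and 0.34 higher in 6XIMO than in 1XIMO. Usp5, its close relative and the main enzyme that recycles unanchored chains, measured 10870.1, 13403 and 13032 in Control, 8297, 10466 and 8898 in 1XIMO, and 6077, 4546 and 6034 in 6XIMO. It fell by 1.17 ± 0.19 after 6 sessions (adjusted p = 0.00319). Against 1XIMO its log2 fold change was -0.74 ± 0.19 (adjusted p = 0.0438), with 0.0625 to 0.164 without any one array other than 6XIMO array 1 (0.00614 to 0.494 over its alternatives). Usp14, the protease of the proteasome, did not pass, at -0.04 ± 0.42 and -0.12 ± 0.42 (adjusted p = 0.993 and 0.869), with 4593, 15801 and 16498 in 6XIMO against 10978 to 12203 in Control. Without 6XIMO array 1 it was 0.49 above Control (adjusted p = 0.00621) and 0.53 above 1XIMO (adjusted p = 0.00751).

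Usp10 and Usp2 led the enzymes of signalling and growth control, of which 2 of 12 rose and 1 fell after 6 sessions, where 9.36% and 14.9% of all genes did. Without 6XIMO array 1, Usp24 also rose (0.92, limma adjusted p = 0.000305). Usp36 and Usp9x then fell too (-0.51 and -0.41, adjusted p = 0.0439 and 0.0242). Usp10, which removes ubiquitin from p53 and binds the stress granule protein G3BP, measured 5138, 5491 and 5669 in Control, 6839.6, 8674 and 9783 in 1XIMO, and 18004, 15281 and 15987 in 6XIMO. The 3 groups were ordered without overlap. It rose 3.01-fold after 6 sessions (log2 fold change 1.59 ± 0.19, limma adjusted p = 0.000643), under all 18 alternatives at 1.40 to 1.76, and was 0.62 ± 0.19 after 1 session (adjusted p = 0.0708, or 0.00792 without 6XIMO array 1). It was 0.97 ± 0.19 higher in 6XIMO than in 1XIMO (adjusted p = 0.0161), with 0.053, 0.0676 and 0.0597 without 1XIMO replicates 1, 2 and 3 (0.00276 to 0.309). Usp10 has 1 probe set here, so no second one can be set beside it.

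Usp2, a rhythmically expressed enzyme known from clock proteins and from sodium channels, measured 692, 1332 and 691 in Control, 1392, 2834 and 2774 in 1XIMO, and 3628, 6462 and 4361 in 6XIMO. It rose 5.35-fold after 6 sessions (2.42 ± 0.38, limma adjusted p = 0.00236), and the call held under all 18 alternatives at 1.94 to 2.86. After 1 session it was 1.35 ± 0.38 (adjusted p = 0.0519), without overlap with Control, and without 6XIMO array 1 its adjusted p was 0.0119. The difference of 6XIMO from 1XIMO was 1.07 ± 0.38 (adjusted p = 0.0989), with 0.0283 without that array. The second probe set measured 5455, 1945 and 1044 in 6XIMO against 539.6 to 1311 in Control, so that 6XIMO array 3 overlapped Control there.

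Usp48, a nuclear enzyme linked to NF-kB and histone H2A, went down in steps. It measured 6409, 7513 and 6600.4 in Control, 4387, 3847 and 4006 in 1XIMO, and 1834, 2649 and 2233 in 6XIMO. It fell by 0.74 ± 0.19 after 1 session (limma adjusted p = 0.0381) and by 1.62 ± 0.19 after 6 (adjusted p = 0.000663), and was -0.88 ± 0.19 in 6XIMO against 1XIMO (adjusted p = 0.0239). Its other probe set did not follow, with 1697 to 2060.2 in Control, 1561 to 1779.8 in 1XIMO and 4072, 2887 and 2956 in 6XIMO, a difference of 0.80 after 6 sessions. With the mean of both, the fold changes were -0.44, -0.41 and 0.03 in the 3 comparisons, with adjusted p of 0.125 (0.00208 to 0.84 over its alternatives), 0.0897 (5.37e-05 to 0.101) and 0.921 (0.00484 to 0.921). The first call was also lost in a fit blocked on replicate number (0.0537), and without any one Control or 1XIMO array or 6XIMO replicate 3 (0.0569 to 0.162), and the third without Control replicate 3, any one 1XIMO array or 6XIMO replicate 3 (0.0506 to 0.0938).

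Usp4, Usp39 and Usp7 were highest in 6XIMO. Usp39, a splicing factor without protease activity, measured 3523, 3906 and 3733 in Control, 2669, 3287 and 3906 in 1XIMO, and 7643, 5284 and 5647 in 6XIMO. It rose by 0.71 ± 0.21 against Control (limma adjusted p = 0.0365, with 0.0577 to 0.105 without any one Control array, 1XIMO replicate 2 or 6XIMO replicate 3 and 0.00931 to 0.2 over its alternatives) and by 0.91 ± 0.21 against 1XIMO (adjusted p = 0.0292, with 0.0554 to 0.102 without Control replicate 2 or 3, any one 1XIMO array or 6XIMO replicate 3 and 0.00945 to 0.256). Usp7, which acts on the p53 ligase Mdm2, measured 8700.2, 8795 and 7829 in Control and 35297, 14374 and 17299 in 6XIMO, where array 1 was far above the others (1.29 ± 0.30, adjusted p = 0.0131). Its 3 other probe sets differed by -0.72, -0.41 and -0.14 in the same comparison. The mean of all 4 gave 0.0046 (adjusted p = 0.99, with 0.000403 to 0.99 over its alternatives), and without Control replicate 3 the adjusted p was 0.0557. The probe set at -0.72 measured 8111, 9021 and 10179 in Control, above the chosen probe set on Control replicates 2 and 3. The chosen probe set was brightest on average over all arrays, stressed groups included, so its choice was not independent of its rise. Usp7 is counted among the rises in 6XIMO on this probe set alone. Usp4 was 0.72 ± 0.19 higher in 6XIMO than in 1XIMO (adjusted p = 0.0437, lost without any one array other than 6XIMO array 1, at 0.0582 to 0.133, and with 0.0146 to 0.783 over its alternatives), while its other probe set differed by -1.07.

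Histone-directed Usp21 fell in both stressed groups, by 0.94 ± 0.20 (limma adjusted p = 0.019) and 1.02 ± 0.20 (adjusted p = 0.00713). It measured 3923, 5168 and 5033 in Control, 2690.3, 2395 and 2216 in 1XIMO, and 2222, 2020.2 and 2701 in 6XIMO, with no overlap with Control. The first call was lost without Control replicate 2 or 3 or 1XIMO replicate 2 or 3 (0.0795 to 0.0997) and after quantile normalization (0.0868), in a range of 0.0023 to 0.512. The other 3 of the histone list, Usp3, Usp27x and Usp49, did not pass with all arrays, and Usp27x did after 6 sessions with quantile normalization (0.63, adjusted p = 0.0443). Usp28, a checkpoint enzyme that stabilises Myc, fell by 1.14 ± 0.23 after 6 sessions (adjusted p = 0.00682), from 2393, 2919 and 3219.7 to 1010.2, 1413 and 1442, and had an adjusted p of 0.117 after quantile normalization (0.00156 to 0.26).

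Other falls after 6 sessions varied more with the array or the probe set. Usp40 measured 5347, 5609.6 and 5453 in Control, 4118, 3659.5 and 4078 in 1XIMO, and 1128, 1857 and 2833 in 6XIMO. It fell by 1.59 ± 0.29 (limma adjusted p = 0.00499), with 0.0575 after quantile normalization and -0.67 (adjusted p = 0.263) with the mean of all probe sets, in a range of 0.000416 to 0.263, and was -1.12 ± 0.29 in 6XIMO against 1XIMO (adjusted p = 0.0421, lost without any one array other than 6XIMO replicates 1 and 3, at 0.0687 to 0.137, with 0.00982 to 0.41 over its alternatives). Its other probe sets past the filter differed from Control by -1.20 and 0.77. Usp54 fell by 1.28 ± 0.31 (adjusted p = 0.0167, with 0.072 and 0.0639 without Control replicates 2 and 3, and 0.00481 to 0.285 over its alternatives). Usp6nl, which matches the symbol rule but encodes a GTPase-activating protein and no ubiquitin protease, fell by 0.86 ± 0.24 (adjusted p = 0.0291, with 0.0506 to 0.104 without any one Control array, 1XIMO replicate 2 or 3 or 6XIMO replicate 3, and 0.0101 to 0.353 over its alternatives). Usp19, anchored at the endoplasmic reticulum, fell by 0.53 ± 0.17 (adjusted p = 0.0496), with 0.0557 to 0.164 without any one array other than 6XIMO array 1 (0.0165 to 0.679). Its second probe set differed by 0.17.

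Usp8, the endosomal enzyme that sorts receptors, and Usp18 did not pass with all arrays and did so without 6XIMO array 1. Usp8 measured 7913, 8889.95 and 8665 in Control, 4980.4, 4433 and 5167 in 1XIMO, and 5086, 12038 and 10803 in 6XIMO. Without array 1 it was -0.80 after 1 session (limma adjusted p = 0.000715) and 1.23 higher in 6XIMO than in 1XIMO (adjusted p = 0.000514). With all arrays these values were -0.80 ± 0.30 (adjusted p = 0.132) and 0.84 ± 0.30 (adjusted p = 0.0987). The other Usp8 probe set past the filter differed by 0.08 and -2.06 in these comparisons. Usp18, which removes ISG15, measured 1680.4, 2994 and 2874 in Control, 1389, 1514 and 1355 in 1XIMO, and 2653, 688 and 591 in 6XIMO. It did not pass with all arrays (-1.23 ± 0.51, adjusted p = 0.106) and was -1.91 without 6XIMO array 1 (adjusted p = 0.000318).

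Several members have more than 1 probe set, which measure different parts of the transcripts. After 1 session, 5 of the 9 members that passed had another probe set past the filter, and 5 of 5 such probe sets had the same sign. After 6 sessions 11 of 19 did, with 15 further probe sets, of which 7 had the same sign and 8 the opposite one. The opposite ones belonged to Ube2g2, Ube2n, Usp19, Usp40, Usp48 and Usp7. In the direct comparison of the stressed groups 3 of 6 had the opposite sign, those of Usp4, Usp40 and Usp48. The actin 3′/5′ ratios of 6.11 to 231 in 6XIMO stand beside this, and their part in it was not tested.

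**Figure D3:**
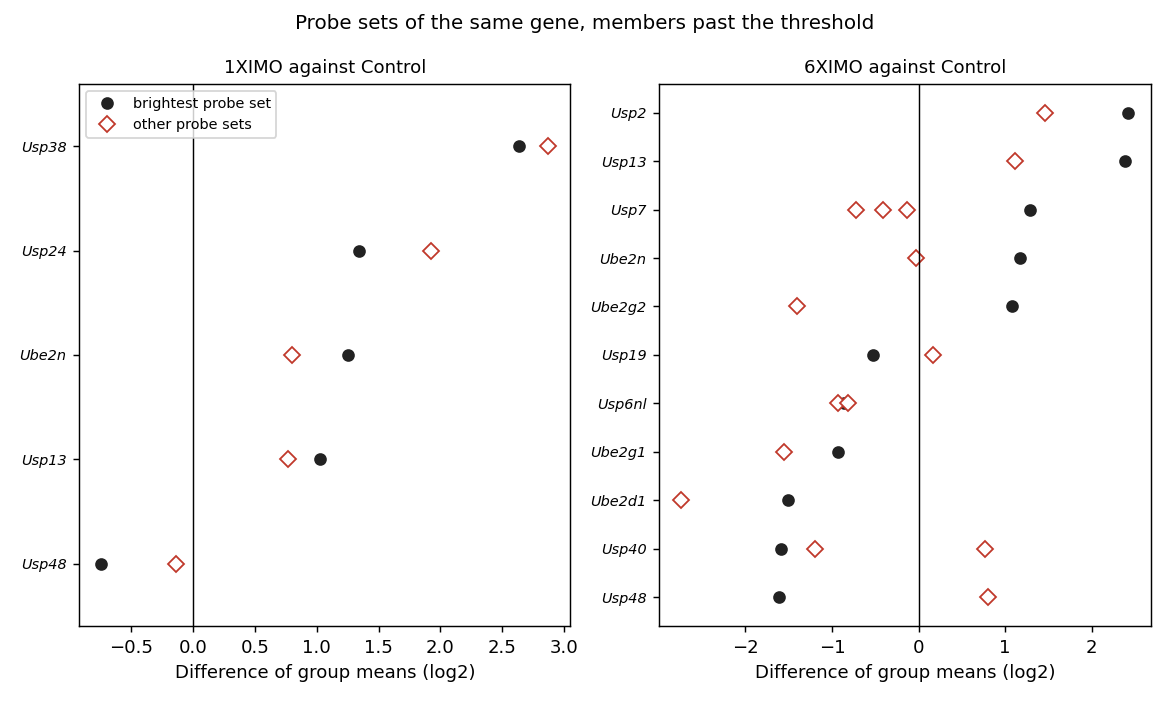
Difference of group means (x axis, log2 of intensity plus 16) for each probe set past the dim filter of members that passed and have more than 1, after 1 session (left) and 6 sessions (right). Filled circles are the brightest probe set and open diamonds the others. On the left all diamonds lie on the side of their circle, and on the right 8 of 15 lie on the opposite side, 3 of them in Usp7.

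The response to 6 sessions was recomputed under 18 alternatives. Usp2, Usp13 and Usp10 passed in each of them. Ube2d1, Usp21 and Usp5 were lost only when each array was centred on its median, with adjusted p of 0.103 (0.000777 to 0.103), 0.259 (0.00194 to 0.259) and 0.212 (0.000301 to 0.212).

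**Figure D4:**
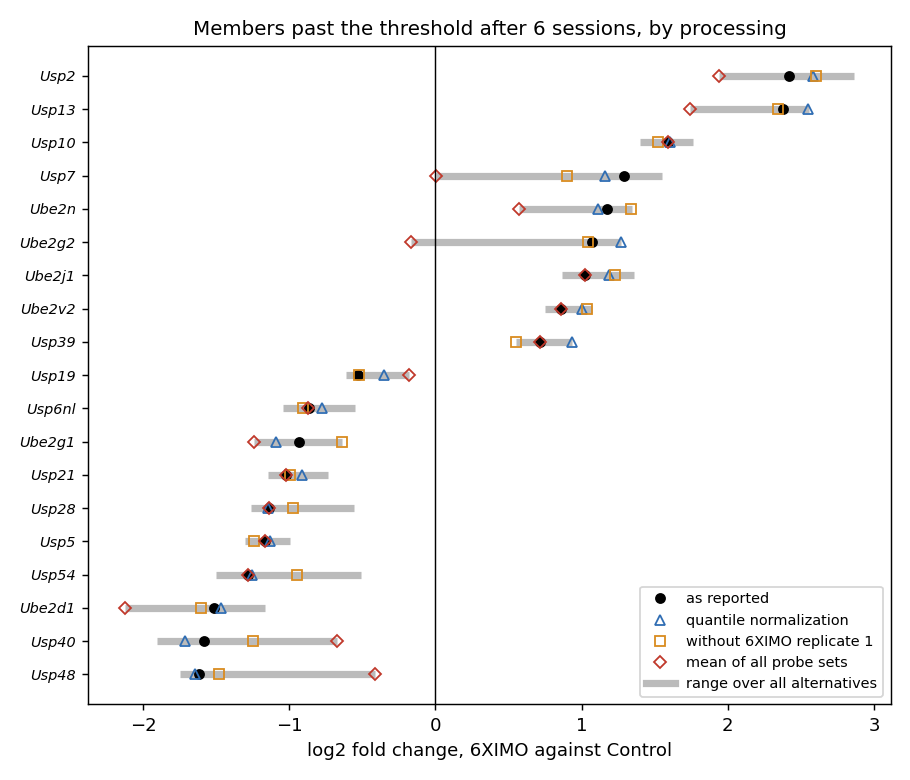
Log2 fold change of 6XIMO against Control (x axis) for the 19 members that passed, as reported and under 3 alternatives, with grey bars for the range over all 18. The bars of Usp10, Usp13 and Usp2 stay above 1, while those of Usp7 and Ube2g2 reach 0.0046 and -0.17 with the mean of all probe sets.

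Around the members, the rest of the ubiquitin system was followed with a list of 116 genes, of which 96 were tested. After 1 session 0 rose and 9 fell by limma (6 and 16 at an unadjusted p under 0.05), with a median log2 fold change of -0.16, and after 6 sessions 6 rose and 14 fell, with a median of -0.12. These are 0% and 9.38% after 1 session and 6.25% and 14.6% after 6, where 4.2% and 5.31%, and 9.36% and 14.9%, of all genes rose and fell, with medians of -0.13 and -0.23. Of 8 activating enzymes 0 rose and 2 fell in each stressed group against Control. Uba6, a second activating enzyme for ubiquitin, fell by 1.41 ± 0.25 and 1.79 ± 0.25 (limma adjusted p = 0.00763 and 0.00145), and Nae1, of the NEDD8 activating enzyme, fell too, at -1.39 ± 0.32 and -1.68 ± 0.32 (adjusted p = 0.0251 and 0.00589). Uba3, its partner, was -0.38 ± 0.37 and -1.08 ± 0.37 (adjusted p = 0.682 and 0.0571). Of 27 other deubiquitinating enzymes and cofactors (among them Wdr48 and Wdr20), 0 rose and 4 fell after 1 session and 1 rose and 4 fell after 6. Mindy1, which trims long chains, fell by 2.17 ± 0.26 and 2.05 ± 0.26 (adjusted p = 0.000993 and 0.000881). Cyld, a brake on NF-kB signalling that cuts Lys63-linked chains, fell by 1.01 ± 0.28 and 1.76 ± 0.28 (adjusted p = 0.0497 and 0.00254). Mysm1, a histone H2A protease, fell by 0.82 ± 0.20 and 1.20 ± 0.20 (adjusted p = 0.031 and 0.00318).

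Of 49 ubiquitin ligases and their subunits 0 rose and 2 fell after 1 session, and 4 rose and 7 fell after 6. The falls, 4.08% and 14.3%, were near the shares of all genes. Cul4a, a scaffold of ligase complexes, was -0.64 ± 0.20 after 1 session (limma adjusted p = 0.0775) and fell by 2.06 ± 0.20 after 6 (adjusted p = 0.000263). Trim32 fell by 1.90 ± 0.22 and 1.27 ± 0.22 (adjusted p = 0.000894 and 0.00401), and Cblb, a ligase that dampens receptor signalling, fell by 0.93 ± 0.22 and 1.57 ± 0.22 (adjusted p = 0.026 and 0.00145). Of 12 genes for ubiquitin-like proteins, their proteases and the conjugating enzyme Ufc1, 0 rose and 1 fell after 1 session, and 1 rose and 1 fell after 6. Isg15, the interferon-induced modifier that Usp18 removes, was 1.14 ± 0.32 after 1 session (adjusted p = 0.0522) and rose by 2.11 ± 0.32 after 6 (adjusted p = 0.00199). Senp7, a SUMO protease, fell by 1.43 ± 0.28 and 1.96 ± 0.28 (adjusted p = 0.0128 and 0.00163). Senp2, another SUMO protease, was 1.02 ± 0.34 and 0.96 ± 0.34 (adjusted p = 0.0936 and 0.0631). The 4 ubiquitin genes themselves were not analysed here.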

How the data were processed

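RNA of 9 adrenal medulla samples was hybridised to Affymetrix rat arrays, 1 sample per array. The deposited values are linear intensities per probe set; per the labels' protocols labelling was done by Affymetrix, and the summarisation method is not given in the sources used here. In the deposited intensity columns the mean without 2% of values at each end was 2500.6 to 2501 on every array, so no further scaling was applied. The medians still differed, at 1583 on 6XIMO array 1, 592.9 and 674.8 on 6XIMO arrays 2 and 3, and 826.6 to 1053.3 on the Control and 1XIMO arrays. Of 31099 probe sets, 57 array controls were left out, 20826 had 1 gene symbol, 436 had several and 9780 had none, by a dated platform annotation. The 8 probe sets with several symbols that hold a member name were left out.

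Values were taken as log2(intensity + 16), so fold changes of dim genes are understated. The dimmest 30% of probe sets were left out, the brightest probe set stood for each gene, and limma 3.58.1 (R 4.3.3; lmFit, eBayes with trend, 6 residual degrees of freedom) was fitted on 11287 genes over all 9 arrays, with Benjamini-Hochberg adjustment and a threshold of 0.05. The script was tested on simulated data. Precision is limited by 3 arrays per group. The members, the gene lists and the genes described were chosen with earlier results of these data known. Genes named are, per comparison, up to 10 members with the largest rises and 10 with the largest falls among those past the threshold, 2 of each role list and 3 of each related list with the smallest adjusted p, the 3 highest and 3 lowest in level, and members whose other probe set goes the other way; further members (Ube2d2, Ube2e3, Ube2h, Usp3, Usp27x and others) were named after their values were seen. Alternatives were other pseudocounts (1 and 64), no filter, quantile normalization, centring on the median, the mean of all probe sets, a replicate block, 2 groups at a time and each array left out. The replicate numbers stand in the sample titles. Deviations from the group means of same-numbered Control and 1XIMO samples correlated at 0.508, 0.36 and 0.25, and those of differently numbered ones at -0.422 to 0.275. The labels do not state pairs, and these overlapping values do not settle whether the numbers are pairs. The reported fit has no block. The blocked value stands beside a result of 1XIMO against Control where it changes the call.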

Additional observations from a re-analysis of the deposited data

Results flagged for a closer look

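For 9 members the responses to 1 and to 6 sessions differed by the direct test of 6XIMO against 1XIMO (limma, adjusted p under 0.05). Of the members 6.06% rose and 7.58% fell, against 5.21% and 4.63% of all genes tested. Of 18 alternatives, Usp38 kept its call in 16, Usp13 and Usp37 in 14 and Usp10 in 13. Usp39 and Usp48 kept it in 9, Usp40 and Usp5 in 6 and Usp4 in 5. None passed with each array centred on its median. The log2 difference was 1.36 for Usp13, 0.97 for Usp10, 0.91 for Usp39 and 0.72 for Usp4, which were higher after 6 sessions. It was -2.01 for Usp38, -1.31 for Usp37, -1.12 for Usp40, -0.88 for Usp48 and -0.74 for Usp5, which were lower. The actin 3′/5′ ratio was 231, 6.11 and 8.87 on the 6XIMO arrays and 1.45 to 2.15 on the others, and its part in these differences was not tested.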

How the results depend on the processing

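Counts of members are given as rises and falls after 1 session, after 6 sessions, and between the stressed groups, where the reported counts were 6 and 3, 9 and 10, and 4 and 5. Centring each array on its median gave 1 and 0, 4 and 0, and 0 and 0. Quantile normalization gave 6 and 2, 11 and 5, and 5 and 2, and without 6XIMO replicate 1 it gave 16 and 8, 19 and 11, and 13 and 10. In the latter fit 11.2% and 19%, 16.5% and 18.6%, and 12.2% and 9.88% of all genes rose and fell. Fitting only the 2 groups compared gave 14 and 10, 6 and 6, and 0 and 1, and shares of all genes are not given for these fits. Leaving out 1 array at a time gave 1 to 17 rises and 0 to 9 falls after 1 session, 5 to 20 and 6 to 16 after 6, and 0 to 14 and 0 to 13 between the stressed groups, with each highest count without 6XIMO replicate 1. The calls over all genes moved too. After 1 session they were 1073 in either direction as reported, 362 without Control replicate 3 and 3410 without 6XIMO replicate 1. Other pseudocounts, no filter and the mean of all probe sets kept each count within 1.5 times. The mean of all probe sets turned the sign for Ube2g2 (6XIMO against Control, -0.17), Usp4 (6XIMO against 1XIMO, -0.18) and Usp48 (6XIMO against 1XIMO, 0.0303). The cause of these changes was not tested.

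Between Control and 6XIMO the same-number deviations correlated at 0.142, 0.06 and 0.158, and between the stressed groups at 0.15, 0.078 and 0.088. These values were lower than those between Control and 1XIMO. With the replicate number as a block, 7 members rose and 2 fell after 1 session, 9 and 11 after 6, and 3 and 4 between the stressed groups. Over all genes 977 passed in either direction after 1 session with the block, and 1073 without it. Of the named calls the block ended that of Usp48 after 1 session, and the adjusted p became 0.0562 and 0.0516 for Usp39 against Control and 1XIMO and 0.064, 0.0534 and 0.0639 for Usp4, Usp40 and Usp5 in 6XIMO against 1XIMO. It ended no other call among the genes named.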
